A study of Mus musculus with 8 samples.

Results

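The genes described here encode the subunits of the mitochondrial respiratory chain, the enzymes of the inner mitochondrial membrane that pass electrons from nutrients to oxygen and make ATP. They were taken from the array by gene symbol: all genes whose symbol starts with Ndufa, Ndufb, Ndufc, Ndufs, Ndufv, Sdha, Sdhb, Sdhc, Sdhd, Uqcr, Atp5 or Cox followed by 4 to 8, without the Ndufaf assembly factors. Of the 12393 genes with a probe set that carried a single symbol, 82 were members by this rule, namely 34 of complex I, 7 of complex II, 8 of complex III, 16 of complex IV and 17 of complex V. The symbol rule also took *Sdhaf1*, *Sdhaf2* and *Sdhaf4*, which are assembly factors of complex II and not subunits. Where a gene had several probe sets, the one with the highest mean signal stood for it.

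The study asked how trefoil factor 2, a small secreted peptide, acts on immature myeloid cells (IMCs). Splenic CD11b+Gr-1+ cells were sorted from 4 male *Tff2*-null (Tff2-/-) mice on the C57BL/6 background, 16 weeks old, that had drunk 3% DSS, a chemical that injures the colon, for 5 days and plain water for the following 14 days. Each mouse gave a pair of cultures of 7 days, one with GM-CSF (Csf2, 5 nM in the labels, while the study's methods give another dose) alone and one with GM-CSF plus 3 µM mouse recombinant Tff2 (rTFF2), which gave 4 cultures in each group. All donors therefore lacked the *Tff2* gene, and no culture without GM-CSF or from wild-type mice was part of the comparison. RNA of each culture was read on 1 Affymetrix mouse array, and the values are the authors' GCRMA signals on the log2 scale.

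Complex I (NADH dehydrogenase) and complex II (succinate dehydrogenase) feed electrons into the chain, complex III (cytochrome bc1) passes them on to cytochrome c, and complex IV (cytochrome c oxidase) hands them to oxygen. The protons that complexes I, III and IV pump across the membrane drive complex V, the ATP synthase. Most subunits are encoded in the nucleus, and the rest in mitochondrial DNA. Mature neutrophils are known for few mitochondria and for making ATP mostly by glycolysis, while macrophages and dendritic cells respire to a degree that depends on their state of activation.

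The medians of the arrays were close but did not overlap between the groups. They were 4.09 to 4.12 on the log2 scale with GM-CSF alone and 4.14 to 4.20 with rTFF2. The arrays correlated at 0.992 to 0.998 within a group and at 0.985 to 0.992 between groups. All 11 measured markers of myeloid cells lay above the background level of 3.37, the 95th percentile of the mean log2 signals of 42 genes known from epithelia, brain, muscle and other tissues, of which 3 lay above it. Although the cultures started from 1 sorted population, marker genes of several myeloid types were present and moved with rTFF2. Of 17 neutrophil markers 16 rose, and their summed linear signal went from a range of 46163.8 to 87823.5 to one of 106880 to 124442; without mice 1 to 4 in turn 13, 17, 9 and 11 passed as higher. Of 14 dendritic cell markers 13 fell, with sums of 33650.3 to 44251.2 against 8558.84 to 13083.6. Of 10 basophil and mast cell markers 6 rose, with sums of 194.8 to 493.0 against 4222.8 to 7791.9, and of 6 eosinophil markers 3 rose, with sums of 618.1 to 2949.4 against 4295.7 to 10563.2. Of the lymphoid, erythroid and stromal markers, those above background numbered 4 of 15 (stromal and endothelial cells), 1 of 13 (T and NK cells), 0 of 9 (B cells) and 0 of 8 (erythroid cells). The signal of the *Actb* control probe sets at the 3′ end exceeded that at the 5′ end by 0.53 ± 0.09 with GM-CSF alone and 0.70 ± 0.05 with rTFF2 on the log2 scale (SD, n = 4; exact permutation test over 70 divisions of the arrays, two-sided, p = 0.029, the smallest they can give). It was higher with rTFF2 in 4 of 4 mice, and within mice the exact permutation test over 16 sign changes, added after the data were seen, gave p = 0.13, the smallest that 4 pairs allow. The part of these shifts in the values below was not tested. In such cultures, fewer cells of a type and less RNA per cell cannot be told apart.

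With rTFF2, few of the respiratory chain genes changed, and most of those that did fell. In the limma fit with the mouse as a block and Benjamini-Hochberg adjustment over all probe sets, 8 of the 82 members fell, 2 rose and the others did not pass an adjusted p of 0.05. Over all genes 27.7% passed the same test, 13.3% lower and 14.5% higher, and of the genes above background 40.9% passed. The members' share was 12.2%, and without the 3 assembly factors 8 of 79 fell and 1 rose. The median log2 difference (rTFF2 minus GM-CSF alone) was -0.03 over all genes and 0.02 over genes above background. For the members it was -0.07, with quartiles of -0.18 and 0.02. The single values ran from -0.85 for *Cox7a1* to 0.49 for *Cox7c*, the latter with an adjusted p of 0.15. *Cox7c*, a small subunit of complex IV, was higher with rTFF2 in mice 1, 2 and 3 and lower in mouse 4. Without mouse 4 its difference was 0.81 (adjusted p = 0.00502), and with the mean of its probe sets it was 0.40 (0.043), in a range of 0.00502 to 0.97 over the alternatives. The main and the other probe set of *Cox7c* were dim, with mean signals of 5.35 and 4.36. After an offset of 32 on the linear scale the difference was 0.28 (adjusted p = 0.31).

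Most of these differences were small. For 75 of the 82 members the whole 95% interval of the difference lay within 0.5 of zero on the log2 scale, that is, within a 1.41-fold change in either direction. The same held for 70.5% of all genes and for 56.2% of genes above background. The intervals themselves were of similar width, in part because the fit draws each variance towards a value common to all probe sets. They reached a median of 0.18 to either side of the difference for the members, 0.20 for all genes and 0.21 for genes above background. The median size of the difference, without its sign, was 0.10 for the members, 0.15 for all genes and 0.24 for genes above background. The members were not compared with genes of like signal, and most members were far above the background level. Slightly lower values were nevertheless more frequent than higher ones, with 58 members (70.7%) below zero and 24 above it. Of all genes 55.5% were below zero, and of genes above background 46.8%. In 27 members (32.9%) the rTFF2 culture was lower in 4 of 4 mice, and in 4 (4.88%) it was higher in 4 of 4. Over all genes these shares were 24.6% and 21.9%, and over genes above background they were 26.1% and 32.1%. The signals of the groups did not overlap for 14 members, or 17.1%, against 27.4% of all genes, of which 27.7% passed the test. For genes above background these shares were 36.9% and 40.9%. At an unadjusted p under 0.05 there were 22 members, or 26.8%, against 39.2% of all genes and 54.0% of genes above background.

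The number of calls depended on single mice. Without mouse 1 only 1 member passed as lower and 0 as higher, without mouse 2 there were 7 and 1, and without mouse 4 there were 2 and 1, the latter being *Cox7c*. Without mouse 3 the count from limma was 0 in both directions, with 11 members at an unadjusted p under 0.05. Over all genes the calls went from 3438 to 2209, 2990, 2299 and 2489 without mice 1 to 4. When the mouse was not used as a block, 4 members fell and 2 rose, against 23.6% of all genes called in either direction. With the 3′ to 5′ contrast of *Actb* as a covariate 2 members passed, *Cox7a1* and *Cox7a2l*, with differences of -1.91 and -0.88. In that fit the members' median difference was -0.12, with 68 below zero. The intervals were wider, reaching a median of 0.37 to either side, against 0.18 in the main fit. The contrast ran from 0.42 to 0.62 with GM-CSF alone and from 0.66 to 0.74 with rTFF2, so the fit can hardly tell it apart from the group. After each array was centred on its median, 17 members fell and 1 rose, and over all genes 2103 fell and 1524 rose, against 1647 and 1791 in the values as deposited. The members' median difference after this centring was -0.12, against -0.07 as deposited.

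**Figure D1:**
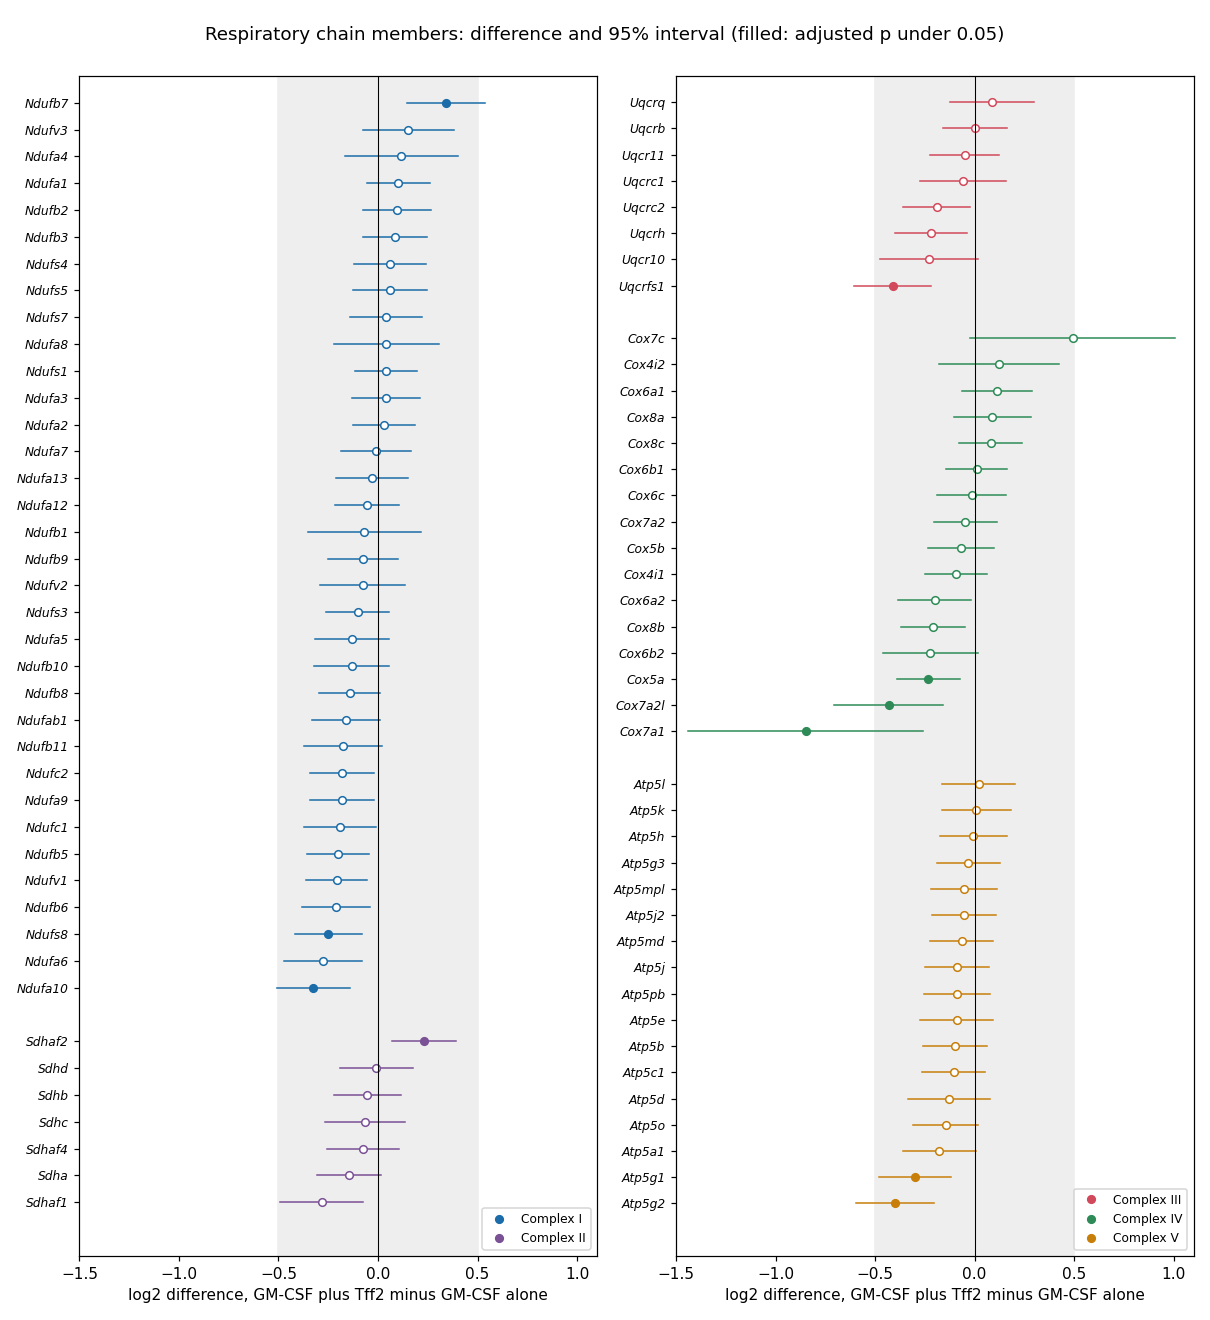
Log2 difference between GM-CSF plus rTFF2 and GM-CSF alone (x axis) for the 82 members, grouped by complex and ordered by value within each. Points are the fitted differences over 4 mice, lines their 95% intervals, filled points passed an adjusted p of 0.05 and the grey band marks differences within 0.5 of zero; 75 intervals lie wholly inside the band.

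The mice were not alike in how far the members lay below zero. The median difference over the 82 members was -0.07 in mouse 1, -0.02 in mouse 2, -0.16 in mouse 3 and -0.03 in mouse 4. In mouse 3 the rTFF2 culture was lower for 73 members, against 55, 44 and 50 in mice 1, 2 and 4. Over all genes the medians of the mice were nearly equal, at -0.02, -0.01, -0.02 and -0.02. Over genes above background they were 0.04, 0.03, -0.001 and 0.04 in mice 1 to 4. The complexes followed the members' order of the mice only in part. In mouse 3 all 8 members of complex III and all 17 of complex V were lower, while in mouse 2 the medians of complexes II, III and IV were above zero, at 0.06, 0.04 and 0.02. Whether the mice differed was not tested, since each had 1 culture per condition.

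**Figure D2:**
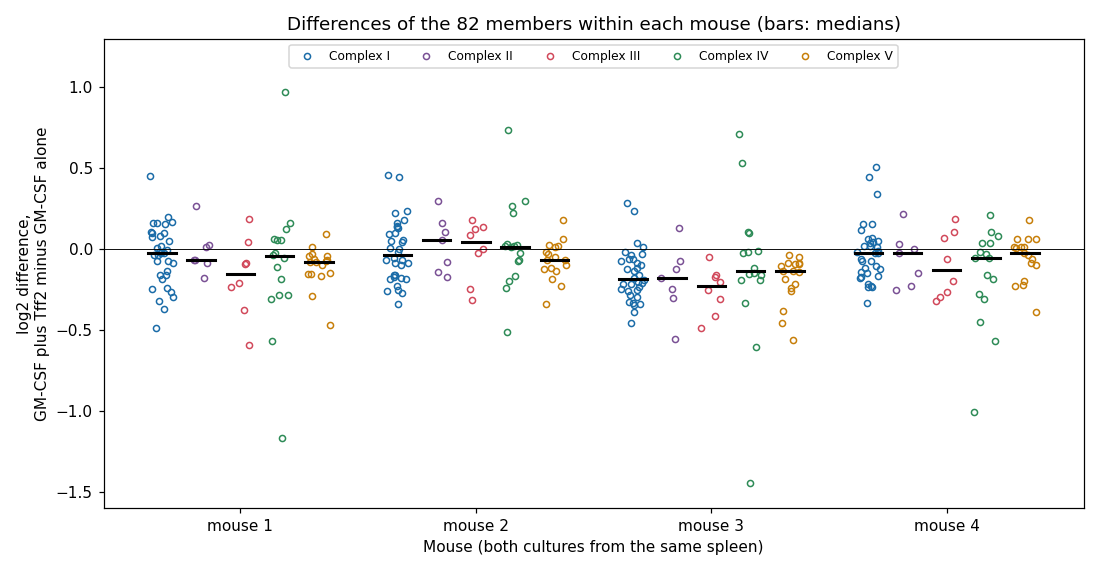
Log2 difference of each of the 82 members within each of the 4 mice (y axis), coloured by complex, with bars at the median of each complex. Mouse 3 has the lowest medians, with 73 of 82 members below zero, and the points far from the others belong to complex IV.

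Complex I, the largest enzyme of the chain, takes electrons from NADH. Of its 34 members 2 fell and 1 rose, with a median difference of -0.07 and a range from -0.32 to 0.34. The share that passed was 8.82%, against 27.7% of all genes and 40.9% of those above background. *Ndufa10*, an accessory subunit of the membrane arm, had signals of 10.70, 10.56, 10.52 and 10.60 with GM-CSF alone and 10.21, 10.37, 10.13 and 10.37 with rTFF2. All 4 rTFF2 cultures lay below all 4 controls, a fall of 0.32 (standard error 0.08, adjusted p = 0.0229, 1.25-fold), and without mouse 1, 3 or 4 the adjusted p was 0.098, 0.089 and 0.051. *Ndufs8*, a core subunit that carries iron-sulphur clusters, had signals of 11.57, 11.70, 11.47 and 11.47 with GM-CSF alone and 11.25, 11.54, 11.12 and 11.29 with rTFF2. It was lower in 4 of 4 mice although the groups overlapped, and fell by 0.25 (standard error 0.07, adjusted p = 0.0419), a call that was lost without any one of the 4 mice (adjusted p from 0.060 to 0.15), without the block (0.107) and with the mean of its probe sets (-0.17, 0.14).

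*Ndufb7*, a small accessory subunit on the intermembrane side of the membrane arm, moved the other way. Its signals were 10.54, 10.79, 10.69 and 10.38 with GM-CSF alone and 10.99, 10.97, 10.92 and 10.89 with rTFF2. Every rTFF2 culture exceeded every control, and the spread between cultures was smaller with rTFF2 (SD 0.05) than with GM-CSF alone (SD 0.18, n = 4 each). It rose by 0.34 (standard error 0.08, adjusted p = 0.0227, 1.27-fold), and without mouse 1, 3 or 4 the adjusted p was 0.095, 0.053 and 0.086. A second probe set of the gene gave the same direction, with a difference of 0.35 (adjusted p = 0.0182).

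The other core subunits of complex I stayed within narrow limits. *Ndufv1*, which binds NADH and flavin, differed by -0.21 and was lower in 4 of 4 mice without overlap, but missed the threshold (adjusted p = 0.0553). *Ndufs1*, the large iron-sulphur subunit, differed by 0.04 (95% interval -0.11 to 0.20), and *Ndufs7*, which holds the last iron-sulphur cluster before ubiquinone, by 0.04 (-0.14 to 0.22). *Ndufa1*, a membrane anchor needed for assembly, differed by 0.10 and was higher in 4 of 4 mice (adjusted p = 0.31). The members just outside the threshold were *Ndufa6* of complex I at -0.28 (adjusted p = 0.0502), *Sdhaf1* at -0.28 (0.054) and *Ndufv1*. *Ndufa4*, counted with complex I by its symbol although its protein is found in complex IV, differed by 0.12 (adjusted p = 0.52), and its control cultures were widely spread (SD 0.43).

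Complex II oxidizes succinate and is the only complex of the chain that also belongs to the tricarboxylic acid (TCA) cycle. None of its 4 subunits passed the test. *Sdha*, the flavoprotein, had signals of 9.62, 9.73, 9.57 and 9.73 with GM-CSF alone and 9.55, 9.59, 9.45 and 9.48 with rTFF2, a difference of -0.15 (adjusted p = 0.17, lower in 4 of 4 mice with overlap). *Sdhb*, the iron-sulphur subunit, and the membrane anchors *Sdhc* and *Sdhd* differed by -0.05, -0.07 and -0.01. The 1 call in this group was the assembly factor *Sdhaf2*, which helps attach flavin to *Sdha*. Its signals were 8.94, 8.90, 9.05 and 8.95 with GM-CSF alone and 9.20, 9.20, 9.18 and 9.17 with rTFF2. The groups did not overlap, and it rose by 0.23 (standard error 0.07, adjusted p = 0.0475, 1.17-fold). This call was lost without any one of the 4 mice (adjusted p from 0.080 to 0.16), after median centring, with a difference of 0.18 (adjusted p = 0.097), and with the mean of its probe sets (0.0687), in a range of 0.0228 to 0.64 over 14 alternatives.

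Complex III had the lowest median of the 5 groups, -0.12 over 8 members. This rank rests on the symbol rule, which left out *Cyc1*, a subunit of complex III that differed by 0.02. With *Cyc1* counted, the middle value would be that of *Uqcrc1*, -0.06, and not the lowest of the groups. Complex III also held the member with the smallest adjusted p of all 82. This was *Uqcrfs1*, the Rieske iron-sulphur protein that takes electrons from ubiquinol. Its signals were 11.23, 11.10, 11.27 and 11.23 with GM-CSF alone and 10.64, 10.86, 10.78 and 10.91 with rTFF2. The lowest control, 11.10, was above the highest rTFF2 culture, 10.91, and the gene fell by 0.41 (standard error 0.08, adjusted p = 0.0107, 1.33-fold). The call held in the fit without the block (adjusted p = 0.00535), was lost by a small margin without mouse 3 (0.0505) and, after adjusting for the *Actb* 3′ to 5′ contrast, the value was -0.52 (0.150), the upper end of a range that began at 0.00208.

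The other members of complex III did not pass. *Uqcrc2*, a core protein of the matrix side, was lower in 4 of 4 mice without overlap, at 11.97, 12.16, 11.95 and 11.95 with GM-CSF alone and 11.89, 11.85, 11.79 and 11.75 with rTFF2, a difference of -0.19 (adjusted p = 0.094). A second probe set of *Uqcrc2* differed by -0.28 and passed (adjusted p = 0.0389). *Uqcrh*, the hinge protein, differed by -0.22 (adjusted p = 0.082), and *Uqcrc1* and *Uqcrb* by -0.06 and 0.00. Whether *Uqcrfs1* differed from the other subunits of its complex in its response was not tested.

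Complex IV reduces oxygen to water. Of its 16 members 3 fell and none rose (18.8%), with a median difference of -0.06, and 5 members were at or below background in both groups. Over all genes 27.7% passed, and of those above background 40.9%. *Cox5a*, a nuclear-encoded subunit that joins early in assembly, had signals of 13.56, 13.57, 13.44 and 13.41 with GM-CSF alone and 13.25, 13.33, 13.25 and 13.22 with rTFF2. The groups did not overlap and the fall was 0.23 (standard error 0.07, adjusted p = 0.0419, 1.17-fold), a call lost without any one of the 4 mice (adjusted p from 0.092 to 0.15) and after a second quantile normalization (-0.20, 0.072).

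*Cox7a2l* was counted with complex IV by its symbol, and its product is known as a factor that joins complexes III and IV into supercomplexes. Whether it does so in cells of this strain was not measured. The gene is outside the rule for named genes and was chosen after its values were seen. Its signals were 11.06, 10.81, 11.50 and 11.41 with GM-CSF alone and 10.49, 10.83, 10.90 and 10.84 with rTFF2. Mice 1, 3 and 4 had lower signals with rTFF2 and in mouse 2 the rTFF2 culture was higher by 0.01, and the fitted fall was 0.43 (standard error 0.12, adjusted p = 0.0340). Both other probe sets of the gene also passed, with differences of -0.42 and -0.46. The call was lost without mouse 1, 3 or 4 (adjusted p = 0.12, 0.13 and 0.12) and without the block (0.084).

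Several subunits of complex IV have isoforms that are known from heart and muscle, lung or testis, and these were at background here. *Cox4i2*, *Cox6a2*, *Cox6b2*, *Cox8b* and *Cox8c* had group means between 2.29 and 2.92, under the background level of 3.37. Their widely expressed counterparts were all above it and did not pass the test: *Cox4i1* differed by -0.09, *Cox6a1* by 0.11, *Cox6b1* by 0.01 and *Cox8a* by 0.09. The exception among the tissue isoforms was *Cox7a1*, the heart and muscle form, with signals of 4.48, 3.33, 5.11 and 4.81 with GM-CSF alone and 3.32, 3.55, 3.67 and 3.80 with rTFF2. Mice 1, 3 and 4 had clearly higher control signals, while in mouse 2 both cultures lay near background and the rTFF2 culture was the higher one. The fitted fall was 0.85 (standard error 0.25, adjusted p = 0.0453), and without mouse 2 it was 1.21 (adjusted p = 0.00104). The call was lost without mouse 1, 3 or 4 (0.15, 0.16 and 0.14) and without the block (0.10), and after an offset of 32 on the linear scale the difference was -0.32 (0.15). These values lie in a range of 0.00104 to 0.16 over the alternatives. *Cox7a2*, the widely expressed form, differed by -0.05 (adjusted p = 0.66), and the difference between the isoforms was not tested.

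Complex V uses the proton gradient to make ATP. Of its 17 members 2 fell, none rose and 15 were below zero, with a median difference of -0.09. The 2 that passed made up 11.8%, against 27.7% of all genes and 40.9% of those above background. Both calls were genes of subunit c, the protein of the rotating ring. *Atp5g1*, *Atp5g2* and *Atp5g3* encode the same mature subunit c behind different targeting peptides. The 100 bases before the start of each gene, on the gene's strand, are shown because the 3 genes yield the same protein and had unequal values, with the letters of the NRF1 motif in capitals (RefSeq, GRCm38.p6).
Atp5g1, chr11:96075632-96075731, minus strand: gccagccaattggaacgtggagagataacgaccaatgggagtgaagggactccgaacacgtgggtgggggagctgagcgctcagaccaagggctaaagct
Atp5g2, chr15:102671048-102671147, minus strand: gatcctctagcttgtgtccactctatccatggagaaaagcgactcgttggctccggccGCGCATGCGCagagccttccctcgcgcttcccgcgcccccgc
Atp5g3, chr2:73911327-73911426, minus strand: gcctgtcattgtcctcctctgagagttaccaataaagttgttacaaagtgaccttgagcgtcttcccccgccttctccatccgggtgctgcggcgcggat

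*Atp5g1* had signals of 10.24, 10.50, 10.28 and 10.29 with GM-CSF alone and 10.07, 10.16, 9.82 and 10.06 with rTFF2. All 4 rTFF2 cultures were below all controls, a fall of 0.30 (standard error 0.08, adjusted p = 0.0279, 1.23-fold). *Atp5g2* had signals of 10.61, 10.35, 10.79 and 10.91 with GM-CSF alone and 10.14, 10.17, 10.23 and 10.52 with rTFF2. Here the groups overlapped, since the control of mouse 2 was lower than the rTFF2 culture of mouse 4, but the value was lower in 4 of 4 mice and fell by 0.40 (standard error 0.08, adjusted p = 0.0128, 1.32-fold). Without the block, the adjusted p of *Atp5g2* was 0.0605 and that of *Atp5g1* 0.0474. *Atp5g3* had signals of 12.47, 12.50, 12.58 and 12.48 with GM-CSF alone and 12.39, 12.52, 12.50 and 12.50 with rTFF2, a difference of -0.03 with a 95% interval of -0.19 to 0.13 (adjusted p = 0.78). Whether the 3 genes differed in response was not tested, nor whether the probe sets also read near-identical transcripts. The call for *Atp5g1* was lost without any one of the 4 mice (adjusted p from 0.052 to 0.11), and that for *Atp5g2* without mouse 1 or 3 (0.057 and 0.058). With the mean of its probe sets, of which the second was at background, *Atp5g2* differed by -0.21 (0.058), in a range of 0.0036 to 0.080 over the alternatives.

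The catalytic subunits of the ATP synthase did not pass. *Atp5a1*, the alpha subunit, differed by -0.18 (95% interval -0.36 to 0.01, adjusted p = 0.15). *Atp5b*, the beta subunit that holds the catalytic sites, differed by -0.10 (-0.26 to 0.06, adjusted p = 0.34) and was lower in 4 of 4 mice. *Atp5pb* of the stator stalk differed by -0.09. For *Atp5o*, the stalk subunit that binds the catalytic head, the main probe set differed by -0.15 (adjusted p = 0.18) and a second one by -0.28 (adjusted p = 0.0265).

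**Figure D3:**
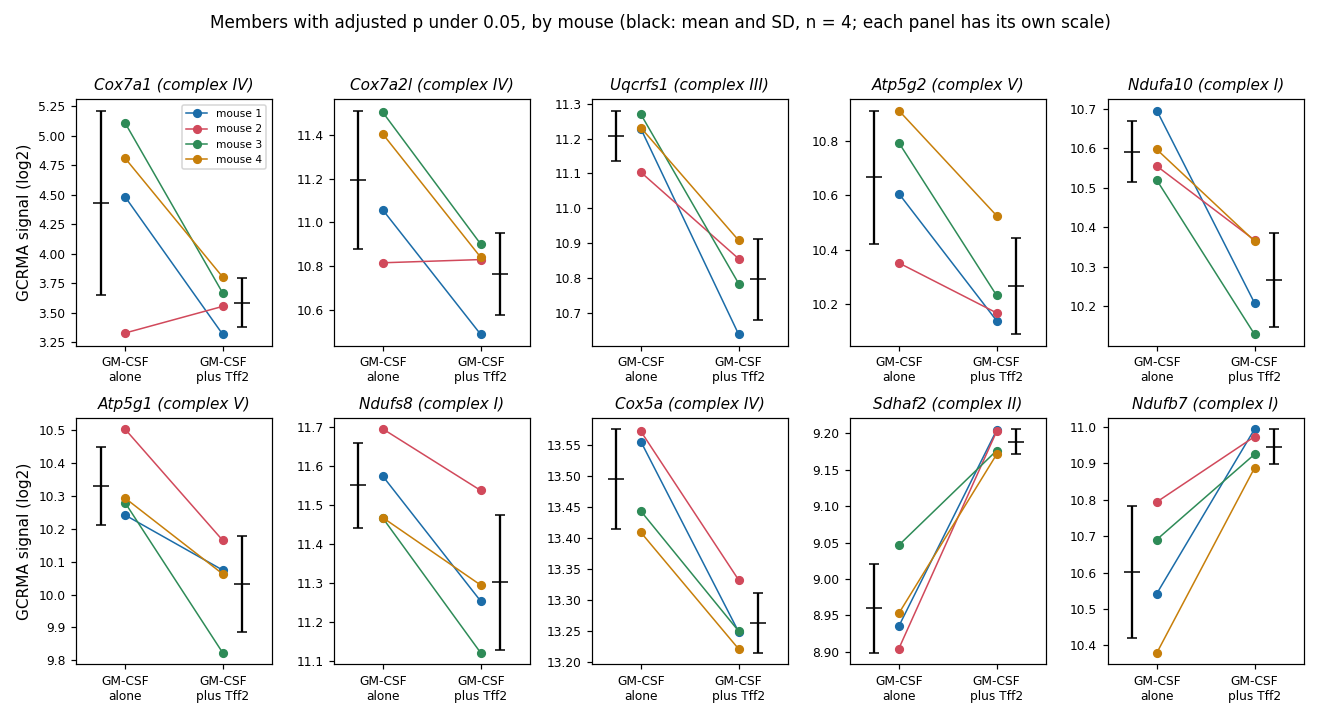
GCRMA log2 signal (y axis, a separate scale in each panel) of the 10 members with an adjusted p under 0.05, without (left) and with (right) rTFF2 in the medium. Coloured lines join both cultures of a mouse and black bars give mean and SD (n = 4); the lines of 8 genes run the same way in 4 of 4 mice, and mouse 2 departs in *Cox7a1* and *Cox7a2l*.

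Other probe sets of the members gave a partial check of these values. Of the 82 members 45 had more than 1 probe set, which left 72 others, of which 63 were above background and 45 of those had the sign of the main one. Among the called members, 5 genes had 11 other probe sets above background, and 10 of these had the same direction and 5 passed the test. The 4 other probe sets that passed where the main one did not were those of *Atp5o* and *Uqcrc2* given above and one each of *Ndufa12* and *Ndufs4*. The latter pair were dim, with mean signals of 4.15 and 4.25, and rose by 1.06 (adjusted p = 0.0083) and 0.94 (adjusted p = 0.0014), while the main probe sets of these genes differed by -0.05 and 0.06. With the mean of its probe sets *Ndufs4* differed by 0.34 and passed (adjusted p = 0.0120).

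Promoters of respiratory chain genes are known for sites of the factors NRF1, GABPA (an ETS factor) and YY1. Windows from 250 bases before to 50 after the start were matched for 68 of the 82 members, among them all 10 that passed. On either strand, the letters GCGCATGC of an NRF1 core were in 9 members (13.2%), CCGGAAG of an ETS core in 19 (27.9%) and AAGATGGCG of a YY1 core in 6 (8.82%). The ETS letters end in the AAG with which the YY1 letters begin, so that these matches can overlap. Over all RefSeq genes the shares were 3.05%, 9.93% and 1.64%, and over the array's genes above background they were 6.71%, 23.1% and 4.12%. Of the genes that passed, *Atp5g2* held the NRF1 letters and *Ndufb7*, *Ndufs8* and *Sdhaf2* the ETS letters, shown in capitals in 30 bases on the gene's strand because these 3 include both members that rose.
Ndufb7, chr8:83566727-83566756, plus strand: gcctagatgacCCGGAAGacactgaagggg
Sdhaf2, chr19:10525349-10525378, minus strand: cccccgccctcCTTCCGGccccgccggccc
Ndufs8, chr19:3912741-3912770, minus strand: ttaggctccgcCTTCCGGttgaaccgcatc

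In *Sdhaf2* and *Ndufs8* the capitals are the ETS letters read on the opposite strand. For *Uqcrfs1*, whose adjusted p was the smallest, the 100 bases before the start are given for comparison and hold none of the 3 motifs.
Uqcrfs1, chr13:30545317-30545416, minus strand: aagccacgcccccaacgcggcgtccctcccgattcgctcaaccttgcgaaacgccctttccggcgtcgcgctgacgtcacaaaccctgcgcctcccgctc

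A match of letters is a description of the sequence and not of binding. Of the factors themselves, *Nrf1* had signals of 5.39, 5.30, 5.16 and 5.51 against 5.83, 5.39, 5.71 and 5.52 (difference 0.27, adjusted p = 0.11), and *Gabpa* differed by -0.12 (adjusted p = 0.24).

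The genes that build and feed the chain were read from lists of their own. Of 34 measured assembly factors, which include the 3 Sdhaf genes, 8 fell and 3 rose, with a median difference of -0.11. The share that passed was 32.4%, against 27.7% of all genes and 40.9% of those above background, where all 34 lay. *Coa7*, a factor of complex IV assembly, fell by 0.46 (adjusted p = 0.0029), *Oxa1l*, which inserts proteins into the inner membrane, by 0.45 (0.0086; -0.10 with an adjusted p of 0.42 when the gene's probe sets were averaged), and *Ndufaf1*, a complex I assembly factor, by 0.34 (0.0122; 0.055 without mouse 3). Without mice 1 to 4 in turn this list had 3, 5, 3 and 7 genes lower and 0, 0, 2 and 0 higher. Of 19 genes of the mobile electron carriers and their synthesis, 6 fell and 3 rose (47.4%), with a median of -0.15, and without mice 1 to 4 in turn 6, 5, 3 and 5 passed as lower and 2, 3, 2 and 2 as higher. *Cycs*, cytochrome c itself, fell by 0.38 (adjusted p = 0.0069, and 0.058 without the block), *Etfa*, which carries electrons from fatty acid oxidation, fell by 0.49 (0.0048), and *Sqor*, which oxidizes sulphide, rose by 0.73 (0.0010; 0.35 when its probe sets were averaged). *Cyc1*, a subunit of complex III that the symbol rule left out and this list holds, differed by 0.02 (adjusted p = 0.88).

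Of 9 genes of ATP export, phosphate transport and ATPase inhibition 3 fell and none rose (33.3%), with a median of -0.13. The share over all genes was 27.7%, and over those above background 40.9%. *Slc25a4*, an ADP/ATP carrier of the inner membrane, had signals of 11.70, 11.55, 11.71 and 11.71 with GM-CSF alone and 10.32, 10.93, 10.58 and 10.93 with rTFF2, and fell by 0.98 (adjusted p = 0.0022, 1.97-fold) without overlap. Its paralog *Slc25a5* differed by -0.13 (adjusted p = 0.21; -0.23 with an adjusted p of 0.0282 when its probe sets were averaged). *Atpif1*, the inhibitor of the ATP synthase, fell by 0.43 (adjusted p = 0.0051; -0.17 with an adjusted p of 0.13 when its probe sets were averaged), and *Vdac1*, the channel of the outer membrane, fell by 0.39 (adjusted p = 0.0106, and 0.13 without the block).

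Of 23 genes of the TCA cycle and of pyruvate entry, 9 fell and none rose (39.1%), with a median of -0.18. Over all genes 27.7% passed, and 40.9% of those above background, where 20 of the 23 lay. *Fh1*, fumarate hydratase, fell by 0.71 (adjusted p = 0.0036), *Idh2*, the NADP-linked isocitrate dehydrogenase of mitochondria, by 0.63 (0.0014), and *Pdk1*, a kinase that switches pyruvate dehydrogenase off, by 0.41 (0.0059, and 0.39 without the block). Without mice 1 to 4 in turn 6, 9, 5 and 7 of the 23 passed as lower. Of 25 genes of protein import and inner membrane organisation, 11 fell and none rose (44.0%), with a median of -0.20, and without mice 1 to 4 in turn 5, 7, 5 and 6 passed as lower. *Chchd6*, a component of the MICOS complex that shapes the cristae in which the respiratory chain sits, had signals of 8.93 to 9.31 with GM-CSF alone and 6.73 to 7.53 with rTFF2. It fell by 1.87 (standard error 0.14, adjusted p = 0.000363, 3.66-fold). The chaperonin gene *Hspe1* and the import gene *Timm8a1* fell by 0.53 and 0.51 (adjusted p = 0.0035 and 0.0032).

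Of 19 regulators of mitochondrial biogenesis, 5 fell and 1 rose (31.6%, against 27.7% of all genes and 40.9% of those above background), with a median of -0.12. Without mice 1 to 4 in turn 3, 4, 3 and 4 passed as lower and 2, 1, 1 and 1 as higher. *Tfb1m*, a methyltransferase of the mitochondrial ribosome's RNA, fell by 0.74 (adjusted p = 0.0014), and *Polg*, the polymerase of mitochondrial DNA, rose by 0.96 (adjusted p = 0.0019). *Pparg*, a nuclear receptor of lipid metabolism, fell by 0.44 (adjusted p = 0.0054), but without the block its adjusted p was 0.41, the upper end of a range from 0.0029, with control signals that ran from 4.71 to 6.14 among the mice. *Ppargc1a*, the coactivator known for driving biogenesis, was at background, with means of 2.10 and 2.25. Of the subunits encoded in mitochondrial DNA, *ND5* of complex I was measured, with signals of 12.47, 12.74, 11.96 and 12.36 against 12.45, 12.40, 12.40 and 12.32 and a difference of 0.01 (adjusted p = 0.97). With the *Actb* contrast as a covariate, of the genes named from these lists only *Chchd6*, *Idh2*, *Tfb1m* and *Polg* still passed. The shares of these lists that passed were not tested against that of the members, and the marker shifts between the groups given above apply to all of them.

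**Figure D4:**
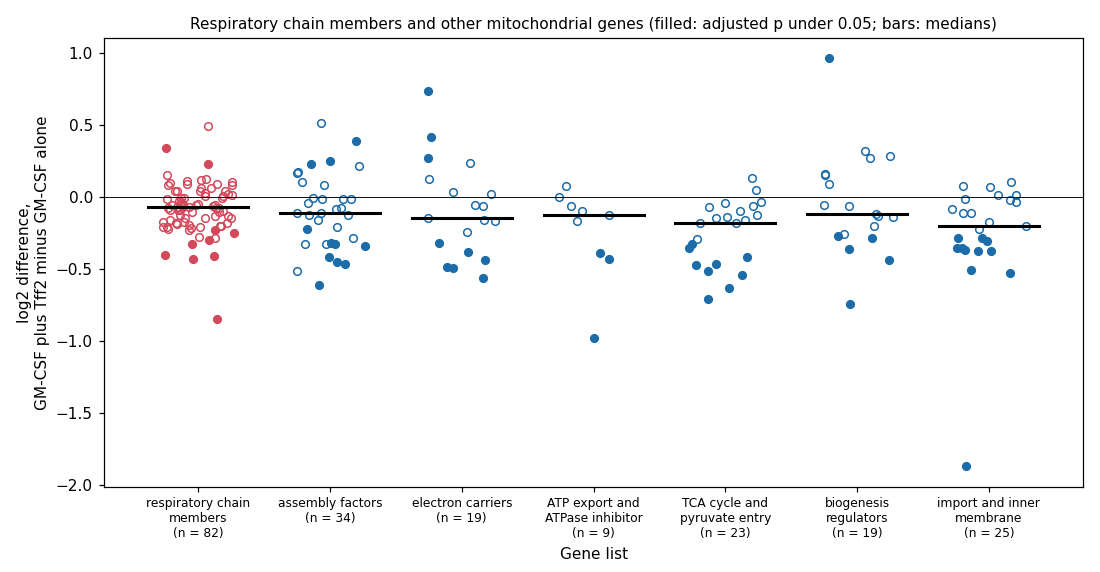
Log2 difference between GM-CSF plus rTFF2 and GM-CSF alone (y axis) for the 82 respiratory chain members and for 6 lists of other mitochondrial genes (x axis, with the number of genes measured). Filled points passed an adjusted p of 0.05 and bars are medians, from -0.07 for the members to -0.20 for import and inner membrane genes, whose lowest point is *Chchd6*.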

How the data were processed

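RNA of 8 cultures was measured on Affymetrix Mouse Genome arrays. The authors deposited log2 signals from GCRMA (background correction by probe sequence, quantile normalization, summary by probe set), in versions GCRMA 2.30.0 and affy 1.36.0 by the submitters' processing notes. These values were used without renormalization. Scanner files were not used here, so no other background correction was run. Of 22690 probe sets 64 controls were left out. Of the 22626 tested, 20380 carried 1 gene symbol, 691 several and 1555 none in the platform annotation, and 8 probe sets with several symbols that included a member were left out of the members.

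Groups came from the sample labels, which give a control and an rTFF2 culture the same number; a number marks the cells of 1 mouse, split before culture. Deviations from the group means correlated at 0.05, 0.54, 0.32 and 0.39 within mice 1 to 4 and at -0.55 to 0.35 between mice, over 12833 probe sets. The test was limma 3.58.1 under R 4.3.3 (lmFit, eBayes) on all 8 arrays with the mouse as a block, Benjamini-Hochberg over 22626 probe sets, threshold 0.05. The study's methods name limma without stating a pairing, and the fit without the block was an alternative. The others were a second quantile normalization, median centring, a filter on dim probe sets, array weights, a trended and robust prior, an offset of 32 added to the linear signal, the mean of a gene's probe sets, the *Actb* 3′ to 5′ difference as a covariate, a threshold of 0.01 and leaving out each mouse. The exact test of the *Actb* difference within mice was added after the data were seen. The fit was tested on simulated data. The members, lists and tests were chosen with earlier results of these data known. Genes were named by a rule: in each complex the 3 members with the smallest adjusted p and the same direction in 4 of 4 mice, and the member with the highest level; the core subunits; the isoform pairs; and up to 3 genes of each mitochondrial list. *Ndufa4l2*, an isoform in that rule, is not analysed here. *Cox7a2l*, *Ndufa6*, *Cox7c*, *Sdhc*, *Sdhd*, *Cox8c*, *Nrf1*, *Gabpa*, *Ppargc1a*, *Cyc1*, *Slc25a5* and the genes named for a second probe set were chosen after their values were seen. Promoter windows are RefSeq's, matched by gene identifier. Precision is limited by the number of arrays, signals of different probe sets are not comparable as levels, and a fold of a dim gene depends on the background correction.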

Additional observations from a re-analysis of the deposited data

Results flagged for a closer look

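Of 136 groups of 4 cultures examined among the named genes, 5 held a culture far from the other three by Dixon's test at its 95% level, which chance gives in about 1 group in 20. The rTFF2 culture of mouse 4 had the lowest signal of *Cox8b*, 2.41 on the log2 scale with the nearest at 2.59, both under the background level. The GM-CSF culture of mouse 2 had the lowest control signal of *Slc25a4*, 11.55, with the nearest at 11.70. The GM-CSF culture of mouse 2 also had the highest control signal of *Uqcrc2*, 12.16, with the nearest at 11.97, and the lowest of *Sdhd*, 10.29, with the nearest at 10.41. The rTFF2 culture of mouse 4 had the lowest signal of *Gabpa*, 9.83, with the nearest at 9.94.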

How the results depend on the processing

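Against 8 members lower and 2 higher, the fit without the mouse as a block gave 4 lower and 2 higher, median centring 17 and 1, the trended and robust prior 15 and 1, and a second quantile normalization 10 and 1. The *Actb* 3′ to 5′ difference as a covariate left 2 lower and 0 higher (9 members at an unadjusted p under 0.05) and, over all genes, 490 lower and 523 higher; a threshold of 0.01 left 0 and 0 members (22 at an unadjusted p under 0.05) and 782 lower and 1005 higher genes. When mice were left out in turn, members lower ranged from 0 to 7 and higher from 0 to 1, and all genes lower from 995 to 1418. Causes were not tested. Array weights, the filter on dim probe sets, the offset and the gene mean gave 9 to 12 lower and 2 or 3 higher. The median difference of the members was negative under every alternative, and each of the 10 called members kept its sign in 14 alternatives. Several of these are no check of a sign. The fit without the block, the filter on dim probe sets, the trended and robust prior and the threshold of 0.01 leave each gene's fitted difference unchanged. With the brightest background gene as the level, 22 members in place of 77 lay above it. The fit without the block moved the members' lower count and lost the calls of *Atp5g2*, *Ndufs8*, *Cox7a2l* and *Cox7a1*; *Cycs*, *Vdac1*, *Pdk1* and *Pparg* also lost theirs, and the other named calls held. For the *Actb* difference of 0.17, the exact test within mice, added after the data were seen, gave p = 0.13. That is the smallest p that 4 pairs allow, so this test could not pass a threshold of 0.05. No alternative turned a direction past the threshold. The calls of *Ndufv1* (5), *Sdhaf1* (4), *Cox8b* (2), *Uqcrh* (2), *Uqcrc2* (2), *Atp5o* (1), *Ndufa6* (7), *Cox7c* (2), *Ndufs4* (1), *Slc25a5* (1) and *Gabpa* (1) were gained in the number of alternatives given.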
